A study of Mus musculus with 8 samples.

Results

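Of 10007 genes that averaged 1 FPKM or more (fragments per kilobase of transcript, scaled for sequencing depth) in each of 3 deposited tables, 41 were at least 2-fold higher without the BMP receptor Bmpr1a in all 3. They were chosen by that property: the difference in mean log2(FPKM + 1), deleted minus control, was 1 or more in hair follicle bulge stem cells, in Shh-CreER hair bulb cells and in K15-CrePGR hair bulb cells. The choice used every library of the study, so the differences below describe the set and are given without a test. Of the 41 genes 40 are protein coding in RefSeq, and Ptprv is a transcribed pseudogene. By role they were grouped as 7 ligands and other extracellular signals, 4 matrix proteins, 14 receptors and surface proteins, 7 regulators of transcription and 9 other intracellular proteins. Ptprv was placed with the receptors by its relation to receptor phosphatases.

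Bone morphogenetic proteins (BMPs) are secreted signals that bind type I receptors such as Bmpr1a, which then phosphorylate Smad transcription factors. In the hair follicle BMP signalling is known to hold bulge stem cells at rest between growth phases, and in the hair bulb it is needed for the transit-amplifying cells (TACs) of the matrix to form the hair shaft. The genes of the Id family are direct targets of the pathway and are commonly read as its output.

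The bulge libraries came from mice at postnatal day 68 that carried K15-CrePGR, an inducible Cre driven by the Krt15 promoter, with Bmpr1a conditionally deleted (cKO, 1 library) or heterozygous (Het, 1 library). The Shh-CreER libraries were from TACs, also taken at postnatal day 68, from cKO (1 library) and Het (1 library) follicles, with an inducible Cre expressed from Shh, a gene active in part of the bulb. The third table held TACs of hair bulbs from K15-CrePGR mice at postnatal day 80, as KO samples 64 and 84 and WT samples 52 and 57. All groups were of mixed strain and all labels name the Cre, the controls included; the control was Het in the first 2 tables and WT in the third. Neither the sorting of the cells nor the induction of Cre is given in the sources used here, and nothing says whether KO 64 and KO 84, or WT 52 and WT 57, were separate animals. With bulk RNA, fewer cells of a type and less RNA per cell cannot be told apart.

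Bmpr1a itself was at 39.3 FPKM in cKO against 31.8 FPKM in Het bulge cells, and at 40.4 FPKM in cKO against 46.0 FPKM in Het Shh-CreER TACs. In K15-CrePGR TACs it was at 39.9 and 38.0 FPKM in KO 64 and 84 against 42.2 and 37.1 FPKM in WT 52 and 57. A value over the whole gene does not resolve the deleted exons, so it does not check the deletion. Id1, a BMP target, was at 111 FPKM in cKO against 297 FPKM in Het bulge cells, at 49.2 FPKM in cKO against 358 FPKM in Het Shh-CreER TACs, and at 120 and 136 FPKM in KO against 289 and 178 FPKM in WT samples. Id2 and Id3 were likewise lower in every deleted library than in every control library of the same table. Id4 was not: it was at 118 FPKM in cKO against 41.9 FPKM in Het bulge cells, at 9.25 FPKM in cKO against 8.28 FPKM in Het Shh-CreER TACs, and at 26.9 and 17.7 FPKM in KO against 13.4 and 8.82 FPKM in WT samples. Krt15, which marks the bulge, was at 3075 FPKM in cKO and 7834 FPKM in Het bulge cells and between 62.5 and 341 FPKM in the 6 TAC libraries, whereas the matrix transcription factor Lef1 was at 1.66 FPKM in cKO and 0.813 FPKM in Het bulge cells and between 36.8 and 87.0 FPKM in TACs. Transcripts of the sex chromosomes differed between libraries: Xist was at 3.98 FPKM in cKO against 68.9 FPKM in Het bulge cells, at 102 against 68.2 FPKM in cKO and Het Shh-CreER TACs, and at 210 and 226 FPKM in KO against 3.26 and 175 FPKM in WT samples, with WT 52 the low one. The Y-linked Ddx3y was at 23.2 FPKM in cKO against 0.255 FPKM in Het bulge cells, at 14.8 FPKM in cKO against 10.001 FPKM in Het Shh-CreER TACs, and at 0.0259 and 0.753 FPKM in KO against 26.4 and 0.0812 FPKM in WT samples. None of the 41 genes is on X or Y. In the bulge table the level of these transcripts and the genotype cannot be told apart.

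**Figure D1:**
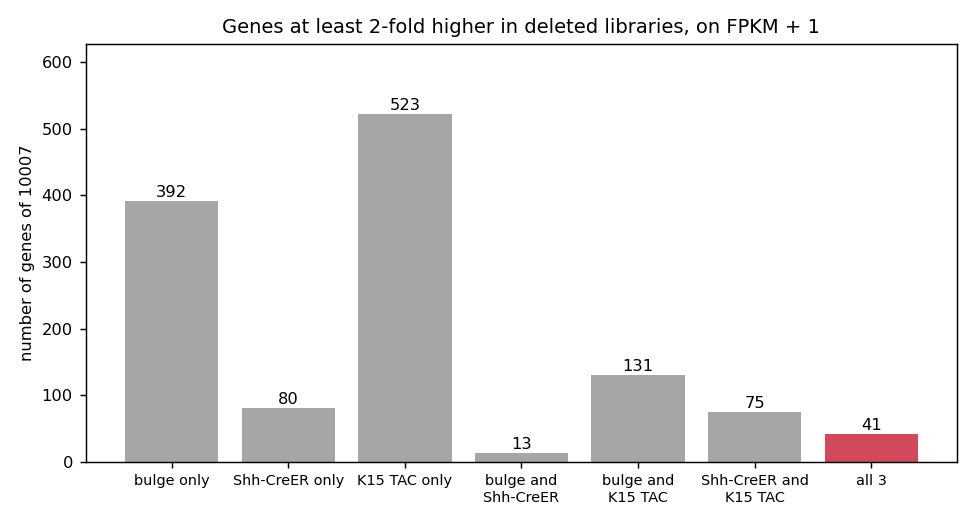
Number of the 10007 genes that were at least 2-fold higher in deleted than control libraries, on FPKM + 1, in each combination of the 3 tables. The bar for all 3 tables holds the 41 genes described here, beside 392, 80 and 523 genes higher in the bulge, Shh-CreER TAC or K15-CrePGR TAC table alone.

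In each table the set was a minority of the genes past the same fold. By this rule 577 genes (5.77%) were higher in cKO than Het bulge cells, 209 (2.09%) in cKO than Het Shh-CreER TACs and 770 (7.69%) in KO than WT K15-CrePGR TACs. Lower by the same fold were 298 (2.98%), 194 (1.94%) and 142 (1.42%). The rule used these contrasts, so nothing is read from the members' share. The bulge and Shh-CreER tables, which share no control library, had 54 higher genes in common, 9.36% of the bulge genes and 25.8% of the Shh-CreER genes. Of these 54 genes 41 were also higher in the K15-CrePGR table and make up the set. The 2 TAC tables had 116 in common, 55.5% of the Shh-CreER genes and 15.1% of the K15-CrePGR genes, and the bulge and K15-CrePGR tables shared 172 genes, 29.8% of those of the bulge and 22.3% of those of the K15-CrePGR TACs. In the opposite direction 11 genes (0.11%) were at least 2-fold lower in all 3 tables, against 41 (0.41%) higher. Across all 10007 genes the differences were ordered differently between tables, with Spearman correlations across genes of -0.01 between bulge and Shh-CreER cells, -0.06 between bulge and K15-CrePGR cells and 0.41 between the 2 TAC tables.

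The members were mostly low in controls, which the rule favours because it subtracts the control level, so nothing is read from it. Their median level was 18.1 FPKM in cKO and 3.54 FPKM in Het bulge cells, 12.8 FPKM in cKO and 3.24 FPKM in Het Shh-CreER TACs, and 14.5 FPKM in KO and 2.47 FPKM in WT K15-CrePGR TACs. The median of all 10007 genes in the same controls was 14.6, 18.3 and 17.0 FPKM. Of the 41, 13 were under 1 FPKM in the controls of at least 1 table and only Foxi3 was under 1 FPKM in the controls of all 3, while no member was listed at 0 in any library. The median difference was 1.69 in the bulge (range 1.00 to 3.05), 1.37 in Shh-CreER TACs (1.00 to 2.78) and 1.74 in K15-CrePGR TACs (1.08 to 3.64) on the log2(FPKM + 1) scale, where all genes had medians of 0.07, 0.01 and -0.02. On this scale the change of a gene that is low in controls is understated. The tables were normalized separately, which touches every level set across them below.

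**Figure D2:**
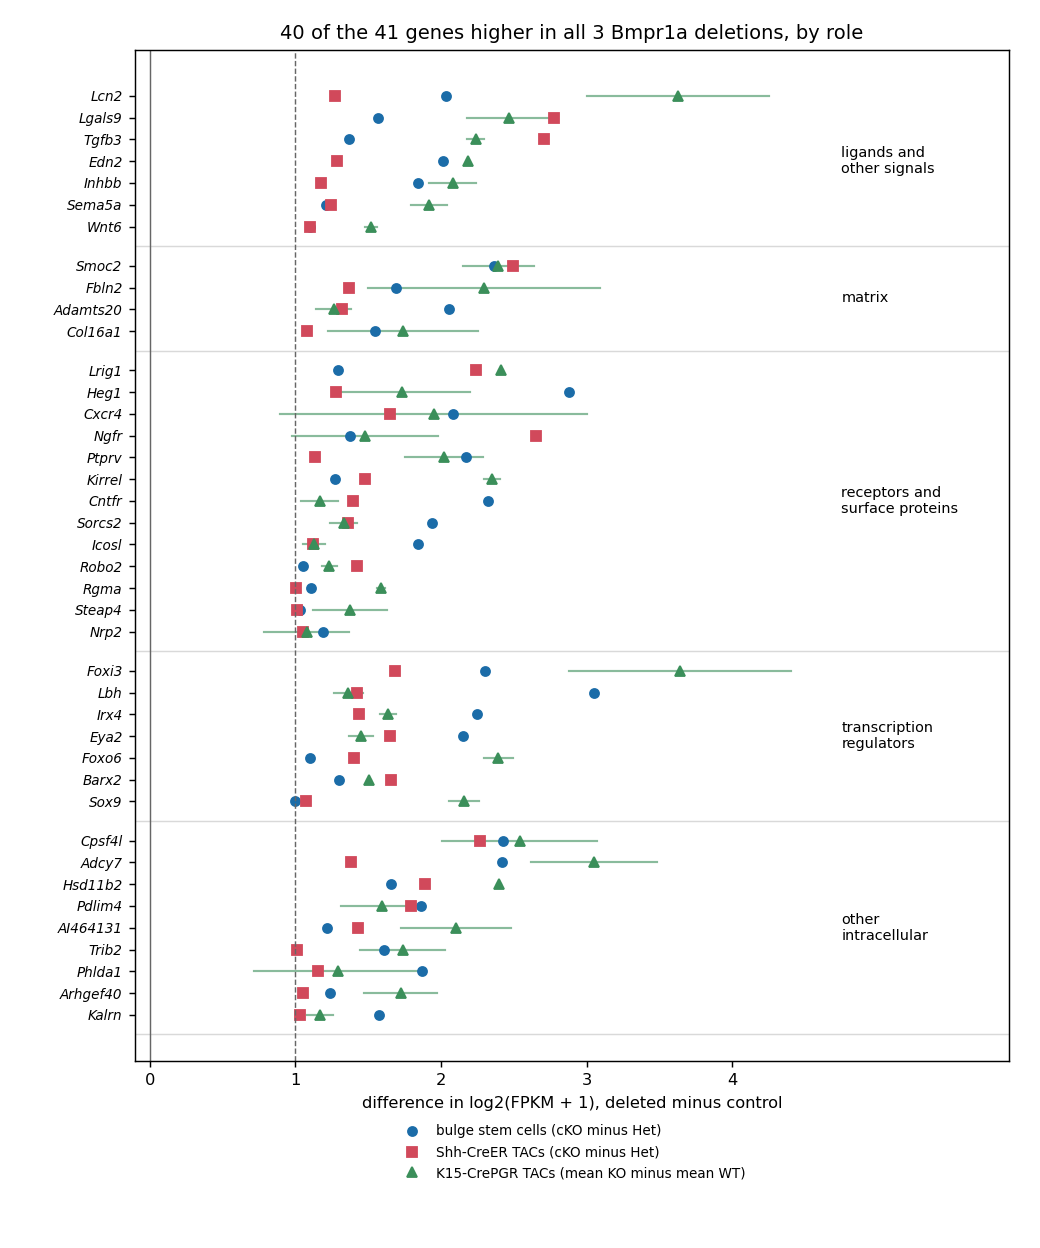
Difference in log2(FPKM + 1), deleted minus control, for 40 of the 41 genes, grouped by role. Circles are bulge cKO minus Het, squares Shh-CreER TAC cKO minus Het, triangles the mean of K15-CrePGR KO minus the mean of WT, and the green lines join KO 64 and KO 84, each minus the mean of WT. The dashed line is the threshold of 1, past which every symbol lies because the genes were chosen by it.

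Sequence upstream of the start site was taken from RefSeq promoters (build GRCm38.p6, 250 bases before to 50 after the start), which were held for 28 of the 41 genes. These promoters were rich in G and C, with a median of 69.0% against 61.7% over the 7212 tested genes that had one. Of 12 short motifs searched on both strands, CCACCC, the core of the sites bound by GLI and also by Krüppel-like factors, was in 16 of 28 member promoters (57.1%), in 36.9% of the promoters of tested genes and in 30.9% of all 27025 promoters. Among promoters with at least 60% G and C it was in 12 of 21 members (57.1%) and 40.5% of tested genes, a comparison added after the first shares were seen. It was present at 2 positions, overlapping positions included, in 5 member promoters, and in 9.84% of tested promoters at 2 or more. The 250 bases upstream of these 5 genes are shown because they hold the motif at its densest in the set, with CCACCC or its reverse complement in capitals.
Edn2: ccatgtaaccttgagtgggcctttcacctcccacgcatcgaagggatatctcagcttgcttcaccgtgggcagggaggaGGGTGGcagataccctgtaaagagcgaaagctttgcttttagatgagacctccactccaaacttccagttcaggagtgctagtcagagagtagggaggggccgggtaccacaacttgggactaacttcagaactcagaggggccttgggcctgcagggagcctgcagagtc
Inhbb: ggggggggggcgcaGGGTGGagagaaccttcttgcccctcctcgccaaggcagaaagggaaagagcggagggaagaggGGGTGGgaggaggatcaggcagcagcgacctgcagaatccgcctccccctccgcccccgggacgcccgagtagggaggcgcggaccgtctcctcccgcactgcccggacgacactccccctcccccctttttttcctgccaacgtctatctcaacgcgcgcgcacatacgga
Sema5a: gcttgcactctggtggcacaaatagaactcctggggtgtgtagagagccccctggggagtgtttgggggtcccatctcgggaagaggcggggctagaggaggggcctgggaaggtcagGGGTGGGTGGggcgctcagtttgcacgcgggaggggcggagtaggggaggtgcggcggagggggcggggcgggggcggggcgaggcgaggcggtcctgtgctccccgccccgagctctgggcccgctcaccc
Wnt6: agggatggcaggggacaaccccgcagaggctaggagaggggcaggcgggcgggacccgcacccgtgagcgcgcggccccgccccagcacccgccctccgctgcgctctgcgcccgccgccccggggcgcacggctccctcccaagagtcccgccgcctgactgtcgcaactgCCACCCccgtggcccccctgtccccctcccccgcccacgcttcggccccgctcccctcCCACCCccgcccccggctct
Cpsf4l: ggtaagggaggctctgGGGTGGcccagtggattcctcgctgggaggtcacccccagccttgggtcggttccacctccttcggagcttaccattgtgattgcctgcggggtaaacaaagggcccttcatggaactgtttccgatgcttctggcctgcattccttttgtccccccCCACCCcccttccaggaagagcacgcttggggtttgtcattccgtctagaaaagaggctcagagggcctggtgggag
In this order they lie at chr4:120160956-120161205 (plus strand), chr1:119422249-119422498 (minus strand), chr15:32244563-32244812 (plus strand), chr1:74771642-74771891 (plus strand) and chr11:113710018-113710267 (minus strand). The Wnt6 matches begin 78 and 20 bases before the start site, those of Inhbb 236 and 172, those of Cpsf4l 234 and 77, and those of Sema5a overlap at 132 and 128. Edn2 has a match that begins 171 bases before the start, and its other one lies after the start. The GC box GGGCGG, in 21 of 28 member promoters (75.0%) and 68.7% of tested promoters, resembles CCACCC in its letters. The AP-1 motif TGANTCA was in 0 of 28 member promoters and 4.55% of tested promoters, CCAAT in 6 (21.4%) and 39.4%, the TEAD motif GGAATG in 1 (3.57%) and 11.2%, and the TCF/LEF motif CTTTGAT in 1 (3.57%) and 2.26%. A TATA box TATAAA was in 3 (10.7%) against 6.53%, the SOX motif ACAAAG in 3 (10.7%) against 12.9%, and the cell cycle element TTTGAA in 1 (3.57%) against 11.3%. The Smad motifs GGCGCC and CAGACA were in 5 (17.9%) and 4 (14.3%) member promoters, against 22.8% and 14.9% of tested promoters, and the hypoxia element ACGTG in 7 (25%) against 27.1%. These are matches of letters in a window and say nothing of binding.

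Among the ligands and other signals, Tgfb3 and Lgals9 had their largest difference in Shh-CreER TACs and Edn2, Inhbb, Sema5a, Wnt6 and Lcn2 in K15-CrePGR TACs. Tgfb3, a ligand of the TGF-beta receptors, was at 24.4 FPKM in cKO against 8.86 FPKM in Het bulge cells and at 24.3 FPKM in cKO against 2.87 FPKM in Het Shh-CreER TACs. In K15-CrePGR TACs Tgfb3 was at 6.29 and 6.90 FPKM in KO 64 and 84 against 0.586 and 0.631 FPKM in WT 52 and 57. Its level was similar in the 2 cKO libraries, and the smaller bulge difference came with a higher control. The K15-CrePGR locus that carries the name Tgfb3 (chr12:87165609-87419991, mm9) is 11.4 times as long as the RefSeq gene and may count neighbouring transcripts. Lgals9 encodes galectin-9, a secreted lectin that binds sugars of surface proteins, and was at 58.8 FPKM in cKO against 19.2 FPKM in Het bulge cells and at 124 FPKM in cKO against 17.2 FPKM in Het Shh-CreER TACs. The K15-CrePGR values of Lgals9 were 17.5 and 11.5 FPKM in KO against 1.48 and 2.04 FPKM in WT samples. The lowest KO value of Lgals9 was more than 4-fold above the highest WT value on FPKM + 1 (log2 difference 2.03). The rule favours a gap between KO and WT samples in every member, so nothing is read from such gaps here or below. Both KO samples lay above both WT samples for 27.2% of all genes.

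Edn2, the endothelin-2 peptide, was at 16.6 FPKM in cKO against 3.36 FPKM in Het bulge cells and at 5.43 FPKM in cKO against 1.64 FPKM in Het Shh-CreER TACs. The KO samples were at 6.66 and 6.60 FPKM Edn2 against 0.736 and 0.614 FPKM in the WT samples. Wnt6, a Wnt ligand, was at 99.2 FPKM in cKO against 45.8 FPKM in Het Shh-CreER TACs but at 5.65 FPKM in cKO against 2.10 FPKM in Het bulge cells, with 27.6 and 29.4 FPKM in KO against 8.07 and 10.7 FPKM in WT samples. Its log2 difference was nearly the same in bulge and Shh-CreER cells (1.10 each) and was 1.52 in K15-CrePGR cells, although its control level in TACs was far above that in the bulge. Inhbb, the beta B subunit of activins and inhibins, showed the opposite order of levels, with 38.6 FPKM in cKO against 10.05 FPKM in Het bulge cells and 4.72 FPKM in cKO against 1.53 FPKM in Het Shh-CreER TACs. The K15-CrePGR values of Inhbb were 10.01 and 12.7 FPKM in KO against 2.32 and 1.55 FPKM in WT samples. Sema5a, a membrane-anchored axon guidance cue, was at 14.8 FPKM in cKO against 5.85 FPKM in Het bulge cells, at 8.06 FPKM in cKO against 2.82 FPKM in Het Shh-CreER TACs, and at 7.26 and 8.78 FPKM in KO against 1.10 and 1.69 FPKM in WT samples. Lcn2, the secreted siderophore-binding lipocalin-2, was at 49.3 and 20.2 FPKM in KO against 1.41 and 1.89 FPKM in WT samples, and its K15-CrePGR locus (chr2:32163991-32243317, mm9) is 25.6 times the RefSeq gene length.

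**Figure D3:**
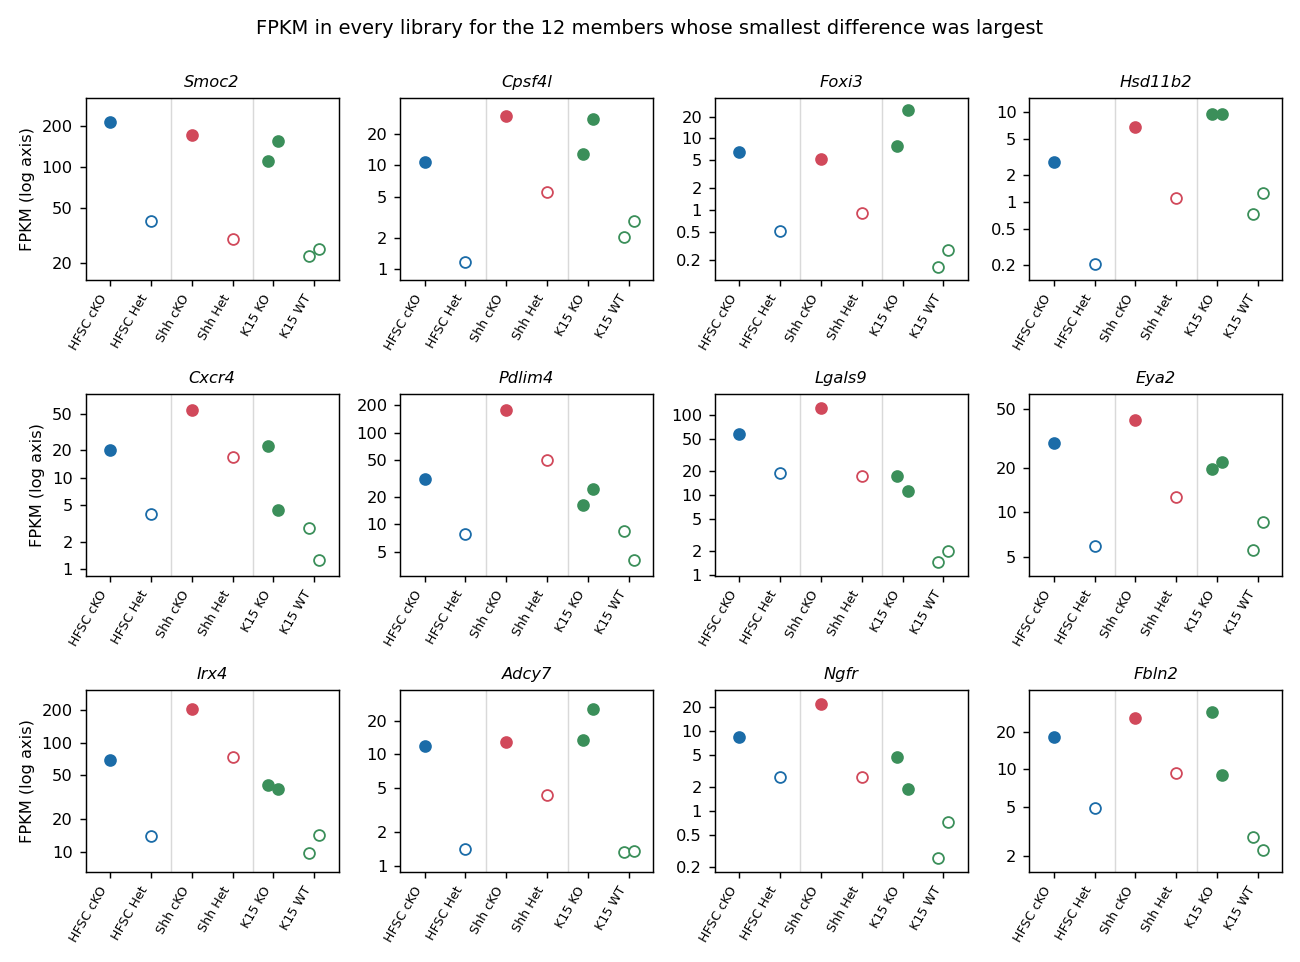
FPKM on a log axis in each of the 8 libraries for the 12 genes whose smallest difference over the 3 tables was largest, with filled points for cKO or KO and open points for Het or WT libraries. In K15 columns the left point is KO 64 or WT 52 and the right point KO 84 or WT 57. In every panel each filled point lies above the open points of its own table, which the choice of the genes favours. Smoc2 alone stays above 100 FPKM in all 4 deleted libraries.

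Smoc2 led the matrix proteins and the whole set. It encodes a secreted calcium-binding matrix protein of the SPARC family, and was the only member with a mean of at least 50 FPKM in each table. Smoc2 was at 213 FPKM in cKO against 40.6 FPKM in Het bulge cells, and at 172 FPKM in cKO against 29.7 FPKM in Het Shh-CreER TACs. In K15-CrePGR TACs it was at 109.9 and 154 FPKM in KO against 22.7 and 25.3 FPKM in WT samples. The log2 differences were 2.37, 2.49 and 2.39, so the 3 tables gave nearly one value. Fbln2 encodes fibulin-2, a glycoprotein of basement membranes and elastic fibres, and was at 18.1 FPKM in cKO against 4.91 FPKM in Het bulge cells and at 25.7 FPKM in cKO against 9.32 FPKM in Het Shh-CreER TACs. The K15-CrePGR samples were at 29.1 and 8.98 FPKM Fbln2 in KO 64 and 84 against 2.84 and 2.24 FPKM in WT samples, and KO 64 was the high one. Col16a1, a fibril-associated collagen, had log2 differences of 1.55, 1.08 and 1.74, and Adamts20, a secreted metalloprotease whose loss gives belted coats in mice, of 2.05, 1.32 and 1.26. Adamts20 was at 3.30 FPKM in cKO against 0.0358 FPKM in Het bulge cells, the lowest value of any member in any library.

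Basement membrane genes were read beside the matrix members, from a list that holds none of them. Of 15 measured, 6 were at least 2-fold higher and 0 lower in bulge cKO than Het cells, 0 were either in Shh-CreER TACs, and 12 were higher and 0 lower in K15-CrePGR KO than WT samples. The medians were 0.39, 0.45 and 1.59. Col4a1, a collagen of basement membranes, was at 53.1 FPKM in cKO against 13.2 FPKM in Het bulge cells, at 15.1 FPKM in cKO against 9.06 FPKM in Het Shh-CreER TACs, and at 58.6 and 34.8 FPKM in KO against 4.54 and 5.31 FPKM in WT samples. By limma on the K15-CrePGR samples 0 of the 15 passed an adjusted p of 0.05 and 12 were higher at an unadjusted p under 0.05. Of 14 measured targets of TGF-beta and YAP signalling, 5 were higher and 2 lower in the bulge, Shh-CreER TACs had 1 of each and K15-CrePGR TACs had 9 higher and 0 lower, with medians of 0.20, 0.16 and 1.29.

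The receptors and surface proteins were the largest role. Cxcr4, the receptor of the chemokine Cxcl12, was at 20.1 FPKM in cKO against 3.98 FPKM in Het bulge cells and at 55.6 FPKM in cKO against 17.0 FPKM in Het Shh-CreER TACs. Its K15-CrePGR values were 22.5 and 4.44 FPKM in KO 64 and 84 against 2.78 and 1.27 FPKM in WT 52 and 57. KO 84 was thus near WT 52, and without KO 64 the difference of Cxcr4 fell below the threshold, to 0.89. Ngfr, the low-affinity neurotrophin receptor, was at 8.45 FPKM in cKO against 2.65 FPKM in Het bulge cells and at 22.1 FPKM in cKO against 2.68 FPKM in Het Shh-CreER TACs, where its difference of 2.65 was among the 6 members past 4-fold. The K15-CrePGR samples were at 4.83 and 1.91 FPKM Ngfr in KO against 0.261 and 0.734 FPKM in WT samples, and without KO 64 the difference was 0.98. Sorcs2, a sorting receptor that pairs with Ngfr in binding proneurotrophins, was at 13.8 FPKM in cKO against 2.86 FPKM in Het bulge cells and at 9.93 FPKM in cKO against 3.24 FPKM in Het Shh-CreER TACs. The KO samples had 9.24 and 10.6 FPKM Sorcs2 against 3.01 and 3.68 FPKM in WT samples.

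Lrig1, a membrane protein that restrains ErbB receptors and marks stem cells of the follicle isthmus, was at 124 FPKM in cKO against 49.8 FPKM in Het bulge cells and at 18.5 FPKM in cKO against 3.13 FPKM in Het Shh-CreER TACs. In K15-CrePGR TACs Lrig1 was at 31.6 and 31.1 FPKM in KO against 6.10 and 4.21 FPKM in WT samples. Both KO samples gave nearly the same level, and the difference in TACs (2.24 and 2.41) was larger than in the bulge (1.29), where the control was high. Isthmus and infundibulum genes other than Lrig1 stood beside it: of 5 measured, 0 were at least 2-fold higher in bulge cKO cells, 2 in Shh-CreER cKO TACs and 5 in K15-CrePGR KO samples, none was lower, and the medians were 0.27, 0.59 and 2.49. Their list, Lrig1 included, summed to 2414 FPKM in cKO against 1604 FPKM in Het bulge cells, to 756 against 120 FPKM in cKO and Het Shh-CreER TACs, and to 426 and 940 FPKM in KO against 76.5 and 39.3 FPKM in WT samples, and its part in the Lrig1 result was not tested. Lgr6, another isthmus marker, was at 22.2 FPKM in both bulge libraries, at 46.6 FPKM in cKO against 3.92 FPKM in Het Shh-CreER TACs, and at 36.1 and 27.2 FPKM in KO against 3.88 and 5.84 FPKM in WT samples.

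Heg1, a transmembrane protein that binds the cytoplasmic adaptor Krit1, was at 14.9 FPKM in cKO against 1.17 FPKM in Het bulge cells and at 6.99 FPKM in cKO against 2.29 FPKM in Het Shh-CreER TACs. The values of Heg1 were 6.62 and 3.01 FPKM in KO against 0.676 and 0.647 FPKM in WT samples, with KO 64 the higher. Its bulge difference was 2.88, next to 3.05 for Lbh. Kirrel, an adhesion protein of the immunoglobulin family, was at 23.2 FPKM in cKO against 9.02 FPKM in Het bulge cells and at 6.97 FPKM in cKO against 1.86 FPKM in Het Shh-CreER TACs. It was at 11.9 and 12.97 FPKM in KO against 1.62 and 1.66 FPKM in WT samples. Rgma, a membrane-anchored BMP co-receptor that also binds neogenin, was at 45.5 FPKM in cKO against 20.5 FPKM in Het bulge cells and had log2 differences of 1.11, 1.00 and 1.59. Among 13 other genes of the BMP pathway itself, 0 were past the fold in the bulge, 1 was higher in Shh-CreER TACs (Fst, an antagonist of activin) and 1 in K15-CrePGR TACs (the ligand Bmp2), with medians of 0.28, 0.12 and 0.23.

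Nrp2, a co-receptor of semaphorins and VEGF, was a gene of TACs, at 79.7 FPKM in cKO against 38.0 FPKM in Het Shh-CreER TACs and 3.75 FPKM in cKO against 1.08 FPKM in Het bulge cells. Without KO 84 its K15-CrePGR difference was 0.78. Hedgehog genes outside the 41 were read from a list. Ptch1, a hedgehog receptor, was at 15.1 FPKM in cKO against 7.88 FPKM in Het bulge cells, at 12.1 FPKM in cKO against 10.7 FPKM in Het Shh-CreER TACs, and at 47.7 and 52.5 FPKM in KO against 19.3 and 28.2 FPKM in WT samples. Of the 7 measured, 0 were at least 2-fold higher in the bulge or in Shh-CreER TACs and 3 in K15-CrePGR TACs (medians 0.42, 0.09 and 0.81). Gli3, a hedgehog transcription factor, was the 1 at least 2-fold lower, at 3.63 FPKM in cKO against 13.5 FPKM in Het Shh-CreER TACs. Gli1, a transcription factor induced by hedgehog signals, was at 23.1 FPKM in cKO against 13.3 FPKM in Het bulge cells and at 29.5 FPKM in cKO against 23.7 FPKM in Het Shh-CreER TACs. Its K15-CrePGR values were 45.3 and 61.6 FPKM in KO against 19.1 and 29.96 FPKM in WT samples, 1 of the 3 past 2-fold.

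Cntfr, the ligand-binding receptor of ciliary neurotrophic factor, was at 107 and 127 FPKM in KO against 47.8 and 55.1 FPKM in WT samples, and its largest difference was in the bulge (2.33). Robo2, a receptor of Slit guidance cues, had log2 differences of 1.06, 1.42 and 1.23. Ptprv, related to receptor tyrosine phosphatases, was at 61.1 and 89.4 FPKM in KO against 16.0 and 19.0 FPKM in WT samples, with differences of 2.17 in the bulge and 1.14 in Shh-CreER TACs. Steap4, a membrane metalloreductase, was at 87.4 FPKM in cKO against 42.2 FPKM in Het bulge cells. Icosl, the ligand of the T cell costimulator ICOS, had differences of 1.85, 1.12 and 1.13.

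The 7 regulators of transcription included Foxi3, which had the largest K15-CrePGR difference of the set. Foxi3 is a forkhead factor of the early hair placode and was at 6.45 FPKM in cKO against 0.511 FPKM in Het bulge cells and at 5.11 FPKM in cKO against 0.903 FPKM in Het Shh-CreER TACs. Its K15-CrePGR values were 7.93 and 24.8 FPKM in KO 64 and 84 against 0.159 and 0.277 FPKM in WT samples. All 4 control libraries were under 1 FPKM and all 4 deleted libraries above 5 FPKM. Lbh, a transcription cofactor, was at 47.5 FPKM in cKO against 4.85 FPKM in Het bulge cells and at 51.3 FPKM in cKO against 18.5 FPKM in Het Shh-CreER TACs. The KO samples had 36.9 and 42.6 FPKM Lbh against 14.8 and 14.8 FPKM in the WT samples. The large bulge difference of Lbh, 3.05, came with a control of 4.85 FPKM.

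Irx4, an Iroquois homeobox factor, was at 69.9 FPKM in cKO against 13.9 FPKM in Het bulge cells and at 202 FPKM in cKO against 74.2 FPKM in Het Shh-CreER TACs. It was at 40.5 and 37.4 FPKM in KO against 9.84 and 14.3 FPKM in WT samples. Among other Iroquois genes, Irx1 was at 42.0 FPKM in cKO against 39.3 FPKM in Het bulge cells and at 15.2 FPKM in cKO against 5.76 FPKM in Het Shh-CreER TACs. Eya2, a coactivator of sine oculis homeobox factors with phosphatase activity, was at 29.5 FPKM in cKO against 5.87 FPKM in Het bulge cells and at 42.1 FPKM in cKO against 12.8 FPKM in Het Shh-CreER TACs. The K15-CrePGR samples gave 19.5 and 21.9 FPKM Eya2 in KO against 5.58 and 8.57 FPKM in WT. Each deleted library was at least 2-fold above every control of its table for both Irx4 and Eya2.

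Barx2, a homeobox factor of the follicle, was at 230.2 FPKM in cKO against 92.7 FPKM in Het bulge cells and at 54.4 FPKM in cKO against 16.6 FPKM in Het Shh-CreER TACs. In K15-CrePGR TACs it was at 20.04 and 20.4 FPKM in KO against 8.74 and 4.77 FPKM in WT samples. The KO samples lay close together, and the 2 WT samples differed from each other by less than either differed from KO. Foxo6, a forkhead factor, was at 7.55 and 6.48 FPKM in KO against 0.553 and 0.488 FPKM in WT samples and had differences of 1.10 in the bulge and 1.40 in Shh-CreER TACs. Sox9, a factor needed for bulge stem cells, was at 119.8 FPKM in cKO against 59.4 FPKM in Het bulge cells, at 5.62 FPKM in cKO against 2.15 FPKM in Het Shh-CreER TACs, and at 12.5 and 14.6 FPKM in KO against 4.21 and 1.02 FPKM in WT samples.

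Genes of the outer root sheath and of bulge stem cells were read beside Barx2 and Sox9, which were left out of the counts. Of 12 measured outer root sheath genes, 3 lay past 2-fold above and 1 below in bulge cKO cells, 0 and 2 in Shh-CreER cKO TACs, and 8 and 0 in K15-CrePGR KO samples (medians 0.55, 0.24 and 1.59). Krt75 of the companion layer was at 12.9 FPKM in cKO against 111 FPKM in Het Shh-CreER TACs. Of 13 measured bulge genes, 1 was higher and 2 lower in bulge cKO cells, 2 and 0 in Shh-CreER cKO TACs, and 8 and 0 in K15-CrePGR KO samples (medians -0.08, 0.53 and 1.66). Tcf7l1, a transcriptional repressor of bulge cells, was the 1 higher in bulge cKO cells, at 26.2 FPKM against 8.47 FPKM in Het. It differed by 0.08 in Shh-CreER TACs. The 2 bulge genes lower in bulge cKO cells were Cd34, at 147 FPKM against 556 FPKM in Het, and Krt15, at 3075 FPKM against 7834 FPKM. Limma called 0 genes of either list at an adjusted p of 0.05, and 9 outer root sheath and 8 bulge genes were higher at an unadjusted p under 0.05. The part of other follicle layers in the Barx2 and Sox9 results was not tested.

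Of the other intracellular proteins Cpsf4l, Hsd11b2 and Pdlim4 were at least 3-fold higher in every table on FPKM + 1. Cpsf4l, which resembles the polyadenylation factor Cpsf4, was at 10.7 FPKM in cKO against 1.17 FPKM in Het bulge cells and at 30.2 FPKM in cKO against 5.50 FPKM in Het Shh-CreER TACs. Its K15-CrePGR values were 12.9 and 28.0 FPKM in KO against 2.05 and 2.90 FPKM in WT samples. The smallest of its 3 differences, 2.27, was the second largest such value of the set after Smoc2, while Cpsf4 itself differed by 0.27, 0.02 and -0.21. Hsd11b2, the enzyme that inactivates corticosterone, was at 2.79 FPKM in cKO against 0.205 FPKM in Het bulge cells and at 6.78 FPKM in cKO against 1.10 FPKM in Het Shh-CreER TACs. The KO samples had 9.32 and 9.52 FPKM Hsd11b2 against 0.732 and 1.25 FPKM in the WT samples. The control levels of Hsd11b2 were low.

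Pdlim4, an actin-associated protein with PDZ and LIM domains, was at 31.1 FPKM in cKO against 7.81 FPKM in Het bulge cells and at 177 FPKM in cKO against 50.3 FPKM in Het Shh-CreER TACs. It was at 16.3 and 24.6 FPKM in KO against 8.45 and 4.12 FPKM in WT samples, where KO 64 was less than 2-fold above WT 52. Adcy7, an adenylyl cyclase, was at 11.9 FPKM in cKO against 1.41 FPKM in Het bulge cells and at 12.8 FPKM in cKO against 4.30 FPKM in Het Shh-CreER TACs. The samples of the K15-CrePGR table had 13.4 and 25.2 FPKM Adcy7 in KO against 1.33 and 1.36 FPKM in WT. Among other adenylyl cyclases Adcy6 differed by -0.39, 0.80 and 0.48 and Adcy3 by -0.60, 0.11 and -0.27.

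Arhgef40 and Kalrn are exchange factors of small GTPases, with log2 differences of 1.24, 1.05 and 1.72 and of 1.57, 1.03 and 1.17. Trib2, a pseudokinase, was at 5.61 FPKM in cKO against 1.17 FPKM in Het bulge cells and at 4.67 and 2.78 FPKM in KO against 0.453 and 0.328 FPKM in WT samples. Phlda1, a pleckstrin homology domain protein, was at 68.04 FPKM in cKO against 17.9 FPKM in Het bulge cells. Its K15-CrePGR values of 11.9 and 4.80 FPKM in KO against 3.96 and 1.52 FPKM in WT samples nearly met, and its difference was 0.71 without KO 64. AI464131, named Myorg in RefSeq and encoding a glycosidase, was at 8.45 and 14.9 FPKM in KO against 1.82 and 1.88 FPKM in WT samples, with differences of 1.21 in the bulge and 1.43 in Shh-CreER TACs.

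The levels of the members in the controls differed widely between bulge and bulb. In Het libraries 13 members (31.7%) were at least 2-fold higher in Shh-CreER TACs than in the bulge on FPKM + 1, 11 (26.8%) were at least 2-fold higher in the bulge, and 17 were within 2-fold. Among all genes these shares were 25.1% and 14.5%. Nrp2 and Wnt6 were among the highest relative to the bulge, by 4.22 and 3.92 on the log2 scale (Shh-CreER Het minus bulge Het), and Sox9, Lrig1 and Rgma lowest, at -4.26, -3.62 and -2.83. The 2 tables were normalized separately, and genotype was Het in both. The largest difference of a member fell in the bulge for 15, in Shh-CreER TACs for 6 and in K15-CrePGR TACs for 20.

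**Figure D4:**
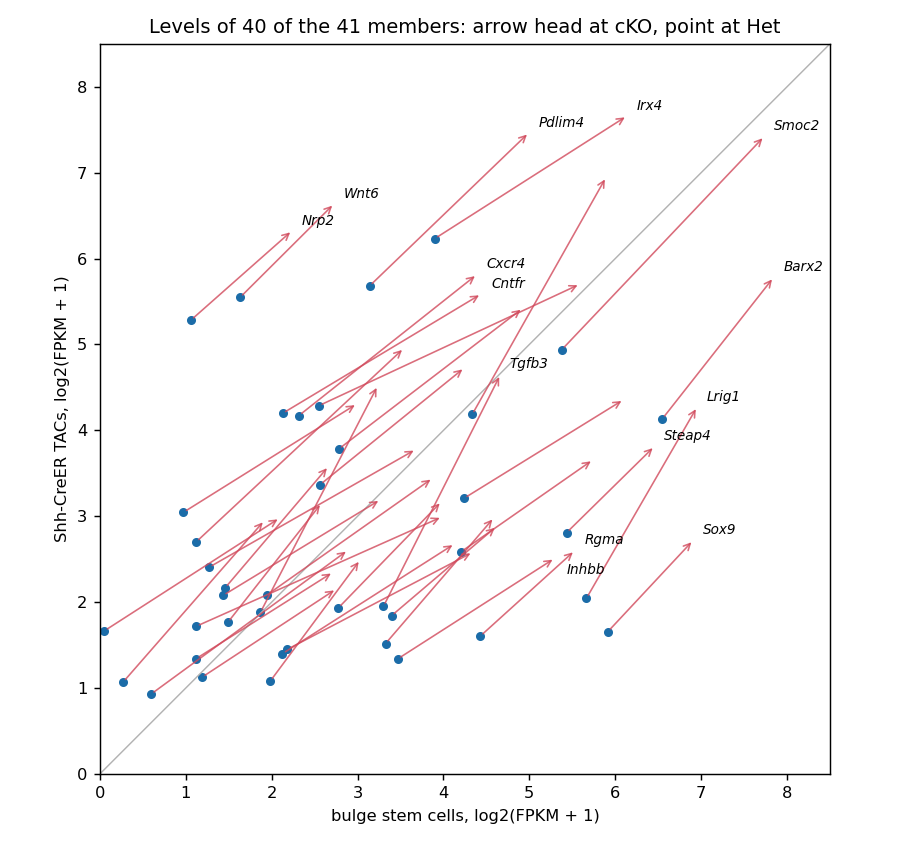
Level of 40 of the 41 genes in bulge stem cells (horizontal) and Shh-CreER TACs (vertical) as log2(FPKM + 1), with the arrow head at the cKO and the point at the Het library. All arrows run up and to the right because the genes were chosen so, from points on either side of the line of equal level, with Nrp2 and Wnt6 far above it and Sox9 and Lrig1 far below.

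The K15-CrePGR samples are the only replicates. Both KO samples were above both WT samples for 41 of 41 members, against 27.2% of all genes, and the lowest KO was at least 2-fold above the highest WT on FPKM + 1 for 33. The rule used the means of these samples, so nothing is read from either count, and no share of all genes was taken for the count of 33. Against the mean of WT, KO 64 was at least 2-fold higher for 40 members (median 1.87, range 0.78 to 4.25) and KO 84 for 38 (median 1.63, range 0.71 to 4.40). The rule favours these counts as well, and no share of all genes was taken for them. KO 84 was the higher KO sample for 25 members and KO 64 for 16. The 2 KO samples differed by a median of 0.32 over the members and 0.26 over all genes, and the 2 WT samples by 0.26 and 0.17. Limma called 0 of the 41 higher at an adjusted p of 0.05, where it called 9 of 12871 loci higher (0.0699%) and 6 lower (0.0466%). At an unadjusted p under 0.05 it called 39 members higher, and 10.4% of loci higher and 7.19% lower. The members were chosen by their differences in these same samples, so nothing is read from the limma calls of members.

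KO 64 exceeded KO 84 by at least 2-fold for 6 members (14.6%), against 4.46% of all genes. They were Cxcr4 (2.11), Fbln2 (1.59), Lcn2 (1.24), Phlda1 (1.15), Col16a1 (1.03) and Ngfr (1.00). KO 84 exceeded KO 64 as much for Foxi3 and Cpsf4l. Markers of other cell types were also high in KO 64, and some of them were higher in KO 84 than in WT samples. The 8 fibroblast markers summed to 1743 and 537 FPKM in KO 64 and 84 against 431 and 448 FPKM in WT 52 and 57. Of these sums Dcn held 551 and 291 FPKM in KO against 284 and 382 FPKM in WT samples. The 7 endothelial markers summed to 40.9 and 5.47 against 4.12 and 1.95 FPKM, and the 10 immune markers to 568 and 208 against 126 and 98.2 FPKM. Of the immune markers Cd207 was listed at 0 in KO 84 and both WT samples and Cd3g in WT 52. Epcam, on the immune list, was at 85.1 and 124 FPKM in KO against 82.5 and 82.9 FPKM in WT samples. It made up most of the immune sum in every K15-CrePGR sample but KO 64. The 6 Schwann cell markers summed to 62.7 and 14.2 FPKM in KO against 11.1 and 4.996 FPKM in WT samples, and the 5 adipocyte markers to 246 and 44.1 against 53.4 and 63.3 FPKM, with Adipoq listed at 0 in WT 57 and Plin1 in both WT samples. The 8 melanocyte markers summed to 132 and 43.3 FPKM in KO 64 and 84 against 35.3 and 37.1 FPKM in WT samples, and the 12 cornified epidermis markers to 336 and 117 against 83.7 and 43.3 FPKM. The 6 smooth muscle markers were high in both KO samples, summing to 133 and 77.03 FPKM in KO against 24.04 and 21.4 FPKM in WT samples. With KO 84 alone as the deleted sample, 38 of the 41 remained past the fold, and Cxcr4, Ngfr and Phlda1 did not. Of the lists read beside the members, 10 of 15 basement membrane, 7 of 14 TGF-beta and YAP, 4 of 5 isthmus, 8 of 12 outer root sheath, 7 of 13 bulge and 3 of 7 hedgehog genes were at least 2-fold higher in KO 84 alone, with medians of 1.35, 0.98, 2.29, 1.96, 1.10 and 0.62. Markers of other cell types were not all at WT levels in KO 84 alone. There 4 of 5 measured fibroblast, 5 of 6 immune and 3 of 3 smooth muscle markers were at least 2-fold higher (medians 1.19, 1.37 and 1.74). So were 4 of 8 cornified epidermis markers, with 1 lower, but 0 of 5 melanocyte and 0 of 3 Schwann cell markers. Reading the lists in KO 84 alone was chosen after seeing the data. The share of all genes past the fold in KO 84 alone was not taken, so these counts cannot be set against a background. The part of the other cell types in these differences was not tested.

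**Figure D5:**
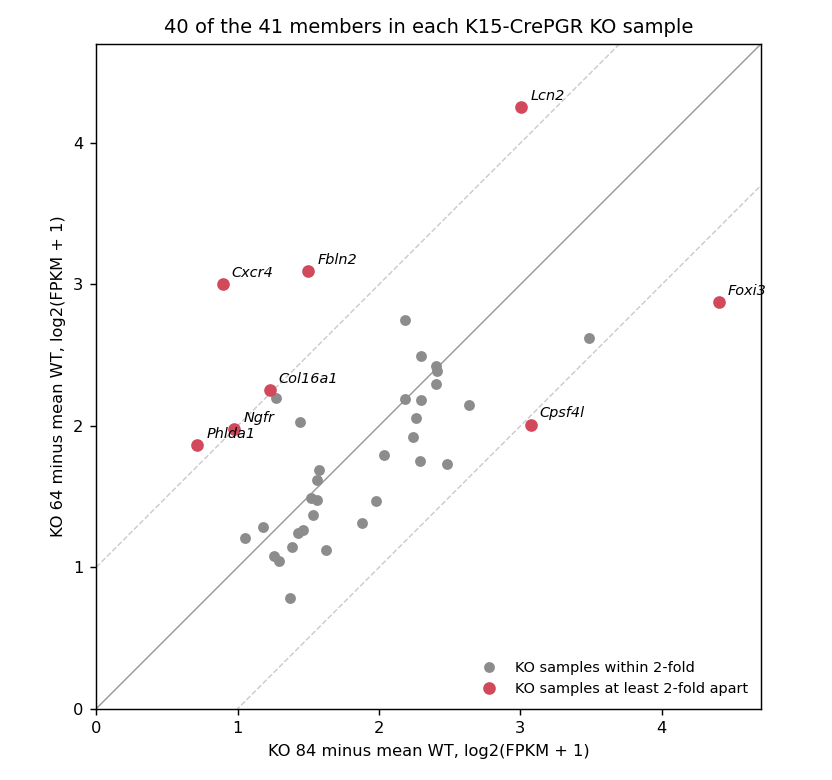
Difference of 40 of the 41 genes in KO 84 (horizontal) and KO 64 (vertical) from the mean of the WT samples, in log2(FPKM + 1). The solid line marks equal differences and the dashed lines 2-fold apart, and the 8 named genes in red lie on or past the dashed lines, 6 of them on the side of KO 64.

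Other cell markers in the remaining tables moved as well. In bulge cells the 6 smooth muscle markers summed to 96.2 FPKM in cKO against 11.8 FPKM in Het, with Des listed at 0 in cKO, and the mitotic genes to 321 FPKM in cKO against 88.0 FPKM in Het. All 19 measured mitotic genes were at least 2-fold higher in bulge cKO cells, and 0 were in either TAC table. In Shh-CreER TACs the 8 skeletal muscle markers summed to 34.8 FPKM in cKO against 176 FPKM in Het. The 8 dermal papilla markers summed to 485 against 262 FPKM there, of which Wif1 alone held 459 and 232 FPKM. Crabp1, the other measured dermal papilla marker, was lower, at 19.5 FPKM in cKO against 25.4 FPKM in Het. The rise of the dermal papilla sum was thus that of Wif1, which is also on the list of Wnt targets and inhibitors. The 7 endothelial markers were at 0.756 FPKM in cKO and 0.421 FPKM in Het bulge cells in sum, with Cdh5 listed at 0 in Het and Emcn in cKO. Of the 5 measured melanocyte markers 4 were at least 2-fold higher and 1 lower in bulge cKO cells (median 1.82). Of the 8 measured cornified epidermis markers 5 were at least 2-fold lower there, and the 12 listed summed to 5108 FPKM in cKO against 12048 FPKM in Het. Sebaceous gland markers, with 6 of 8 at least 2-fold lower, summed to 302 FPKM in cKO against 728 FPKM in Het bulge cells. Their part in the members' differences was not tested.

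BMP target genes lay on the other side. At least 2-fold lower were 6 of 11 measured in bulge cKO cells, 7 in Shh-CreER cKO TACs and 4 in K15-CrePGR KO samples, with 1 higher in the bulge and 0 in TACs (medians -1.05, -1.17 and -0.83). Without KO 64 the K15-CrePGR count was 7. None of them was among the 41. A list of paralogs and known partners of the members, written after the members' values were seen, had 77 measured genes. At least 2-fold higher were 8 of these in the bulge, 7 in Shh-CreER TACs and 19 in K15-CrePGR TACs, with medians of 0.09, 0.23 and 0.47. Lower by that fold were 3, 3 and 1. Among all genes 5.77%, 2.09% and 7.69% were higher and 2.98%, 1.94% and 1.42% lower. The list was chosen with values known, so nothing is read from these counts. The list holds no member, so by the rule none of its genes could be higher in all 3 tables. Ednra, a receptor of endothelins, was at 8.22 FPKM in cKO against 28.2 FPKM in Het bulge cells and at 1.60 FPKM in cKO against 9.87 FPKM in Het Shh-CreER TACs, while its ligand gene Edn2 was higher in both. In K15-CrePGR TACs Ednra was not lower, at 6.99 and 1.57 FPKM in KO against 2.83 and 2.55 FPKM in WT samples (difference 0.30). Tgfb2 was at 4.38 FPKM in cKO against 1.65 FPKM in Het bulge cells and differed by 0.47 in Shh-CreER TACs and 1.05 in K15-CrePGR TACs. Lgals1, another galectin, was at 333 FPKM in cKO against 38.0 FPKM in Het bulge cells but at 60.3 against 78.1 FPKM in cKO and Het Shh-CreER TACs. In K15-CrePGR TACs Lgals1 was at 94.8 and 61.8 FPKM in KO against 25.4 and 22.8 FPKM in WT samples.

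Membership at the threshold was a matter of small differences. The 3 members nearest to it were Sox9 (smallest difference 1.00, in the bulge), Rgma (1.00, in Shh-CreER TACs) and Steap4 (1.01, in Shh-CreER TACs). Just outside lay Parm1 (0.99 in Shh-CreER TACs), Has3 (0.98 in Shh-CreER TACs) and Klk6 (0.96 in the bulge). A threshold of 1.5 in all 3 tables kept 7 genes, Smoc2, Cpsf4l, Foxi3, Hsd11b2, Cxcr4, Pdlim4 and Lgals9. Under median scaling, quantile normalization, pseudocounts of 0.1 and 5 and each K15-CrePGR sample left out, 12 of the 41 were kept every time: Smoc2, Cpsf4l, Pdlim4, Lgals9, Eya2, Irx4, Fbln2, Tgfb3, Lbh, Barx2, Lrig1 and Cntfr.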

How the data were processed

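Per the labels' protocols a Zymed kit was used for RNA and a genomics core facility prepared the libraries. TopHat, Cufflinks and the mouse build mm9 are named in the submitters' processing notes, without versions. The authors deposited FPKM per gene or locus in 3 tables, 1 each for bulge cells, Shh-CreER TACs and K15-CrePGR TACs. Depth is not given: per the values of low genes, 1 read was worth about the same in both Shh-CreER libraries (cKO to Het ratio of depth 1.003, in 397 of 2457 genes), and the ratio was 0.854 between the bulge libraries (324 of 2651 genes), while for the K15-CrePGR samples only KO 84 to WT 57 was resolved, at 0.803 (319 of 2417 genes). Loci without a gene name (8904 in the K15-CrePGR table) held 78.4% to 79.0% of its summed FPKM, so its levels are not on the scale of the other tables and differences between genotypes were taken only within a table. Control levels set across the bulge and Shh-CreER tables are a description.

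Symbols that join several genes were left out, and the row of highest mean was kept for each symbol. A gene was tested where it averaged 1 FPKM or more in each table, and a difference of 1 in log2(FPKM + 1) was the threshold. The members, the gene lists and the rule for named genes were chosen with earlier results of these data known. That rule gave values in all 8 libraries to the 20 members with the largest smallest difference and named every member once, except 1 that is not reported here or drawn in the figures. Values of other members and of genes named beside them from the list of paralogs and partners were added after their values were seen. The bulge and Shh-CreER comparisons have 1 library per genotype and no test. For the K15-CrePGR samples limma 3.58.1 in R 4.3.3 (moderated, with intensity trend, two-sided, Benjamini-Hochberg over 12871 loci that averaged 1 FPKM or more) was fitted to 2 KO and 2 WT samples, after it had been tested on simulated data. Its p-values rest on the spread between these 4 samples alone, and that spread may be technical. Other steps used Python 3.11.15 with pandas 2.3.3 and numpy 2.4.6. RefSeq promoters were matched by symbol.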

Additional observations from a re-analysis of the deposited data

Results flagged for a closer look

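Of the gene lists that hold no member of the set, 5 had medians past 2-fold in opposite directions in bulge cells and in at least 1 TAC table, and the difference between tables was not tested. The hair shaft keratins had a median log2 difference of 1.41 in bulge cells, from a summed level of 27.4 FPKM in cKO against 8.59 FPKM in Het, but of -2.98 in Shh-CreER TACs and -2.43 in K15-CrePGR TACs. Genes of the inner root sheath had a median of 1.33 in bulge cells and of -1.60 in K15-CrePGR TACs, but of 0.06 in Shh-CreER TACs. Sebaceous gland markers had a median of -1.35 in bulge cells and of 1.43 in K15-CrePGR TACs, and immune markers of -1.02 and 2.65. In Shh-CreER TACs these medians were 0.68 and -0.22. Cornified epidermis markers had a median of -1.12 in bulge cells, 0.06 in Shh-CreER TACs and 1.16 in K15-CrePGR TACs. Without KO 64 the K15-CrePGR medians were 0.91 for sebaceous gland markers and 1.37 for immune markers.

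Loci without a gene name were used in no comparison. Of 2425 such K15-CrePGR loci averaging 1 FPKM or more, 165 (6.80%) were at least 2-fold higher in KO with both KO samples above both WT samples, and 160 were lower in the same way.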

How the results depend on the processing

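The count of 41 genes was 55 with a pseudocount of 0.1, 44 without a filter on low values, 36 with median scaling, 33 with quantile normalization, 33 when every KO sample had to be 2-fold above every WT sample, 59 with a threshold of 0.8 and 41 with joined loci counted. It was 13 with a pseudocount of 5, 18 with a mean of at least 5 FPKM in each table and 7 with a threshold of 1.5. Leaving out 1 K15-CrePGR sample gave 39 to 42: Cxcr4, Ngfr and Phlda1 were lost without KO 64, Nrp2 without KO 84, none without WT 52, and Kalrn, Phlda1 and Robo2 without WT 57. Over all genes, the 577 higher in bulge cKO cells became 250 with a pseudocount of 5 and 302 with a filter of 5 FPKM, and the 298 lower became 160, 135 and, without a filter, 528. The 209 higher in Shh-CreER cKO TACs became 319 with a pseudocount of 0.1, 86 with 5, 95 with a filter of 5 FPKM and 318 without a filter, and the 194 lower became 115, 121 and 324 with a pseudocount of 5, a filter of 5 FPKM and no filter. The limma calls, 9 higher and 6 lower in KO, became 16 and 10 with a pseudocount of 0.1, 3 and 3 with 5, 22 and 23 without a filter, and 4 higher without an intensity trend. They ranged from 0 to 17 higher and 0 to 6 lower with 1 sample left out, and were 0 without WT 52 or without WT 57, where the lone WT sample is assumed to vary like the KO samples. The cause of these changes was not tested. No member's difference changed direction, but a pseudocount, a filter or a left-out sample could not reverse one. Every member had both KO samples above both WT samples, so nothing is read from this. No paired analysis was possible because the K15-CrePGR samples share no number between genotypes and the other tables have 1 library per genotype. A depth that could be read for few libraries limits what can be said of members under 1 FPKM in controls.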

Other observations

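Among the 41 genes 3 pairs lay within 200 kb of each other in the K15-CrePGR table's mm9 loci. Edn2 and Foxo6 on chromosome 4 were 99.7 kb apart with no named locus between them. AI464131 and Cntfr, also on chromosome 4, were 154 kb apart with 8 named loci between them, of which 2310028H24Rik and Enho were among the tested genes. Heg1 and Kalrn on chromosome 16 were 154 kb apart with 3 named loci between them, including Itgb5 and Umps. These 6 genes are 14.6% of the set, and 1.44% of all tested genes (144 of 10007) lay within 200 kb of a member. Chromosome 4 held 6 members (14.6%, against 6.60% of tested genes) and chromosomes 1 and 11 held 5 each (12.2%, against 5.67% and 8.48%).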
